A study of Mus musculus with 17 samples.

Results

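CD4 T cells sorted from the lacrimal gland were compared with CD4 T cells sorted from the spleen, on 7 of the 17 arrays of the series (4 gland, 3 spleen). The arrays were chosen by their titles, and 17097 genes were measured, each by 1 probe set. All mice were of the NOD strain, whose lacrimal glands become infiltrated by lymphocytes and which serves as a model of Sjögren's syndrome. Gland cells came from males of 16 weeks, and the gland was dissociated mechanically and digested with enzymes before sorting. The sample labels give the spleen donors as males of 16 weeks, while the series design gives 4 weeks and calls the splenic cells a steady-state control. No digestion is stated for the spleen. Tissue, digestion and possibly age therefore lie on the same contrast and cannot be told apart. Both groups were gated as CD45+ CD3+ CD4+ cells without NKp46, CD11b, CD11c or B220, at a stated purity over 99%, went straight into lysis buffer, and their RNA was amplified before hybridization. The labels do not say whether arrays of a group stem from separate animals. The p-values therefore reflect the spread among the arrays alone, which may be technical. The sort did not separate regulatory from conventional CD4 T cells. In such bulk samples fewer cells of a type and less RNA per cell cannot be told apart.

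CD4 T cells recognise peptide antigens through the T cell receptor and differentiate into helper subsets that are known by their cytokines and lineage factors: Th1 cells by interferon gamma and T-bet, Th2 cells by interleukin 4 and GATA3, Th17 cells by interleukin 17, follicular helper cells by interleukin 21 and Bcl6, and regulatory cells by Foxp3. Naive cells circulate through spleen and lymph nodes, whereas cells that stay in tissues carry adhesion molecules and chemokine receptors suited to that place. In the lacrimal gland of NOD males, infiltrating lymphocytes surround ducts and acini that secrete tear proteins.

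At a fold minimum of 2, more genes were called higher than lower in CD4 T cells of the gland against those of the spleen. Calls required a fold of at least 2 and, in limma, an adjusted p under 0.05 (Benjamini-Hochberg, all genes together). By that rule 914 genes (5.35%) were higher and 277 (1.62%) lower in the gland, together 6.97% of those tested. These shares are the background for every list count below. Of the genes called higher, 328 differed by at least 4-fold and 136 by at least 8-fold, against 26 and 2 of those called lower. In 437 of the genes called higher, the spleen mean lay below 4.71, the median of all deposited log2 values. No detection calls were used here, so a fold against such a level is a ratio of deposited values. The median gene stood at -0.03 (log2, gland minus spleen). With every array centred on its median gene it stood at -0.185, and the split was 757 higher and 426 lower, so that 64% of the calls were higher instead of 76.7%. The adjusted p alone, without a fold minimum, called 2168 higher and 1827 lower, so that 54.3% were higher. The split also depended on genes high in epithelium, as given below. The arrays of each group did not overlap for 907 of the genes called higher and 276 called lower, against 34.6% of all genes.

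**Figure D1:**
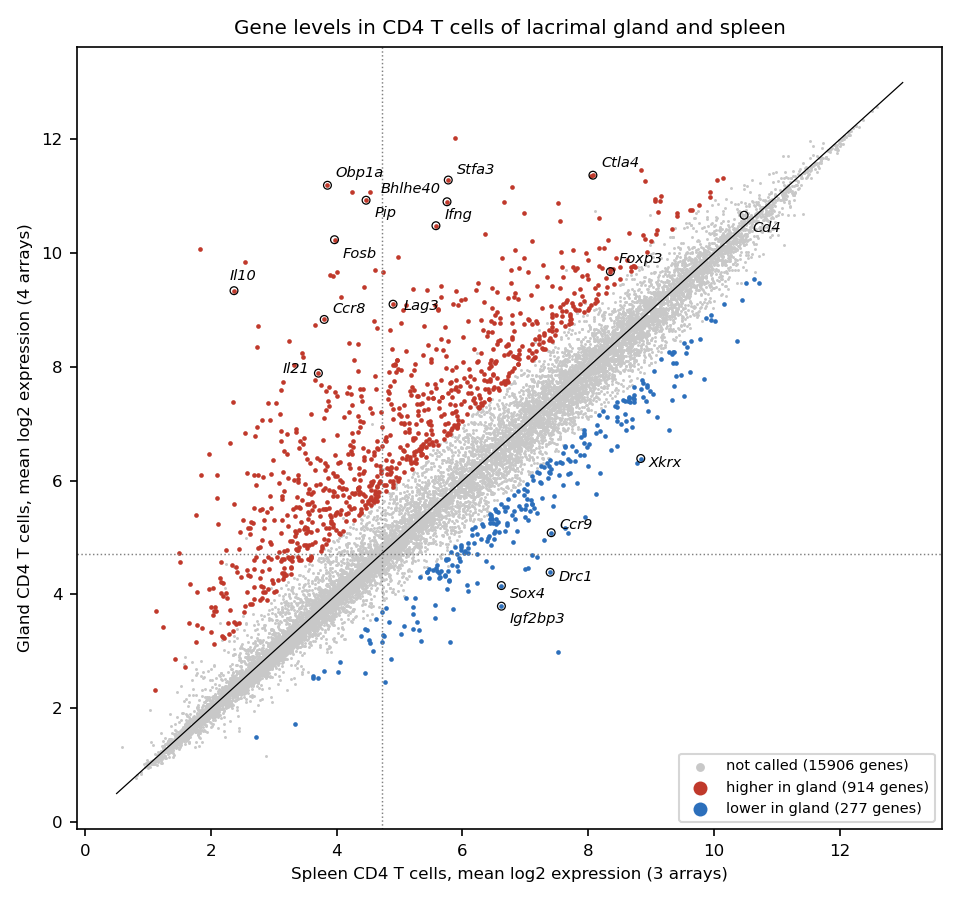
Mean log2 expression of each of 17097 genes in spleen CD4 T cells (horizontal, 3 arrays) and gland CD4 T cells (vertical, 4 arrays), with the 914 genes called higher and the 277 called lower in the gland in colour. Points called higher reach from the dimmest spleen levels upward, and genes called lower lie closer to the diagonal.

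The T cell label held in both groups. Cd3e, part of the CD3 signalling module, stood at 9.89, 9.99, 9.86 and 10.11 in the 4 gland arrays and at 9.81, 10.001 and 9.86 in the 3 spleen arrays. Cd4, the coreceptor used in the gate, stood at 10.53, 10.71, 10.71 and 10.71 in the gland and 10.61, 10.24 and 10.59 in the spleen. For Cd3g, another chain of that module, the values were 10.99, 10.69, 10.92 and 10.97 and 10.64, 10.68 and 10.73. The groups overlapped in all 3 genes, and none of the 16 measured T cell identity genes was called (median 0.16). Cd8a, which marks CD8 T cells, had means of 5.64 ± 0.10 (SD) and 5.61 ± 0.06, close to its 5.21 in epithelium.

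Genes of the gland's secretory epithelium stood high on every gland T cell array. Obp1a, an odorant-binding protein, stood at 11.44, 11.21, 11.01 and 11.12 in gland and at 4.29, 4.81 and 2.46 in spleen T cells, beside a mean of 12.28 in sorted epithelium and 11.29 in gland B cells. It had the largest increase that the naming rule took (162-fold). Scgb1b2, a secretoglobin, stood at 12.33, 11.58, 12.13 and 12.08 in the gland and spread from 2.49 to 8.03 in the spleen (70.8-fold, SE 0.87 on the log2 scale). Of 15 secretory genes measured, 9 were called higher (median 4.59), among them Sval2 (158-fold), Wfdc18 (114-fold), Pip, a prolactin-inducible tear protein (88.3-fold), and Ltf, which encodes lactoferrin (50.3-fold). The mean over the list was 7.29, 7.73, 8.36 and 8.29 on the gland arrays and 3.94, 5.54 and 3.24 on the spleen arrays, so the spleen arrays were lower and replicate 2 was the highest of them. Epithelial structure genes were called higher in 7 of 17 (median 0.79). Krt18, a keratin, stood at 8.69 ± 0.32 in gland and 4.64 ± 0.14 in spleen T cells against 12.06 in epithelium, and Epcam, the CD326 antigen, at 6.72 ± 0.11 and 5.21 ± 0.10 against 10.68. The list means were 5.25 to 5.58 in the gland and 3.95 to 4.05 in the spleen.

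Of the 914 genes called higher, 437 (47.8%) were in epithelium 4-fold or more above spleen T cells, and 471 (51.5%) had a higher mean in epithelium than in gland T cells. Leaving out every gene 4-fold higher in epithelium than in spleen T cells left 476 called higher and 268 lower among 15464 tested (64% higher). Leaving out also the genes 4-fold higher in gland B cells, an alternative added after the data were seen, left 397 higher and 263 lower (60.2% higher). The part of epithelial RNA in the other genes called higher was not tested.

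Markers of other cells were fewer. In the B cell list 4 of 17 genes were called higher: Cd74, the invariant chain (9.14 ± 0.34 and 6.34 ± 0.17), the MHC class II genes H2-Ab1 (7.95 ± 0.41 and 5.02 ± 0.13) and H2-Aa (7.54 ± 0.17 and 4.83 ± 0.27), and the B cell scaffold Bank1 (3.73 ± 0.48 and 2.30 ± 0.29, both below the median of all values). Ms4a1, which encodes CD20, stood at 4.67, 2.82, 4.84 and 4.37 in the gland and 3.21, 3.40 and 3.59 in the spleen, so that gland replicate 2 lay below all spleen arrays; its mean in gland B cells was 11.08. Without that replicate Ms4a1 was called higher (log2 1.23, adjusted p = 0.00336). The list means were 4.91 to 5.28 in gland and 4.27 to 4.44 in spleen T cells against 10.27 in gland B cells. Among 6 plasma cell genes, Jchain, the joining chain of secreted antibodies (9.09 ± 0.53 and 5.57 ± 1.30), and Xbp1, a factor of secretory cells (2.21-fold), were higher; Xbp1 was also high in epithelium (10.41). Csf1r and Adgre1 of macrophages and Ncr1 of NK cells had gland means of 4.09, 3.51 and 2.08, all below the median of all values and within 0.14 of their spleen means. Other macrophage genes stood higher in the gland without a call, among them the lysozyme gene Lyz2 (log2 2.44, adjusted p = 0.113) and the complement genes C1qa, C1qb and C1qc (log2 0.70, 0.47 and 0.55), whose adjusted p-values in a fit of the 7 CD4 T cell arrays alone were 0.00814, 0.0234 and 0.00351. Fcgr3, an Fc receptor gene, lay at log2 -1.27, with 0.000144 in that fit. These genes were named after their values were seen. Over the 15 macrophage genes the median was 0.43, and the list means were 4.41 to 4.60 in the gland and 3.89 to 4.30 in the spleen. In 4 more lists 1 gene was called higher, those of macrophages (Cd14, 2.68-fold), dendritic cells (Fscn1, 16.0-fold), NK cells (Eomes, 3.65-fold) and myoepithelial cells (Mylk, 4.06-fold, but log2 0.64 and not called when its probe sets were averaged). The first, second and last of these had higher means in epithelium than in gland T cells. No member of the neutrophil, mast cell, fibroblast or CD8 and gamma delta T cell lists was called, and 1 endothelial gene, Pecam1, was lower (2.04-fold). It was not called without gland replicate 2, gland replicate 3 or spleen replicate 2. How far other cells contribute to the changes below was not tested. Levels in epithelium and gland B cells are given beside many of the genes below but not beside all, so a gene without them need not be low there.

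**Figure D2:**
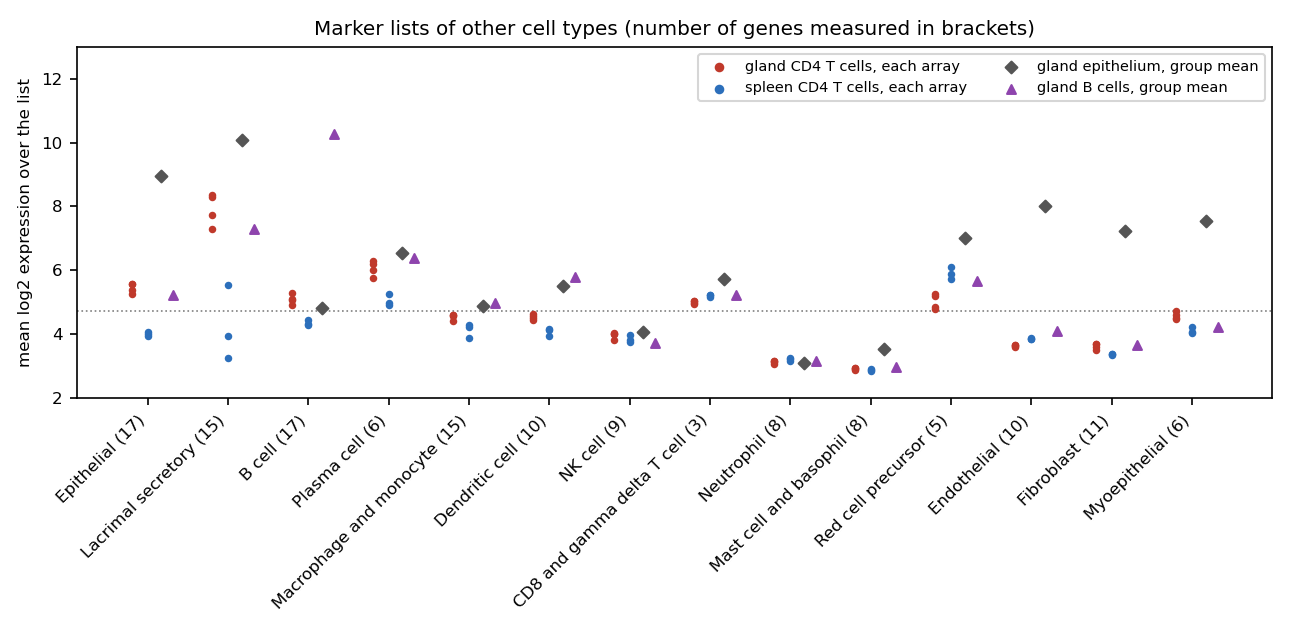
Mean log2 expression over each marker list of another cell type (vertical) for every gland and spleen CD4 T cell array, with the group means of gland epithelium (diamonds) and gland B cells (triangles). Secretory genes lie between 7.29 and 8.36 on the gland T cell arrays and between 3.24 and 5.54 on the spleen arrays, while most immune marker lists lie near the dotted line at 4.71 or below it in both.

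Of 23 regulatory T cell genes measured, 15 were called higher, 1 lower and 7 not at all, with a median of 1.62. Foxp3, the lineage factor, stood at 9.71, 9.86, 9.68 and 9.45 in the gland and 8.45, 8.22 and 8.39 in the spleen, a 2.50-fold difference (log2 1.32, SE 0.10, adjusted p = 1.38e-07). The groups did not overlap, and levels in gland B cells (5.24) and epithelium (4.81) were low. Il10, an anti-inflammatory cytokine, stood at 9.47, 9.28, 9.26 and 9.36 in the gland and 1.96, 2.54 and 2.60 in the spleen. It was the largest increase among genes not also high in epithelium or gland B cells (log2 6.97, SE 0.20, adjusted p = 1.59e-12), from a spleen level below the median of all values. Ctla4, which takes costimulatory ligands from antigen-presenting cells, stood at 11.45, 11.32, 11.24 and 11.47 against 7.83, 8.03 and 8.36 (9.83-fold, adjusted p = 3.2e-07). The array spread within either tissue was small beside these gaps.

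Nt5e and Entpd1, the ectoenzymes CD73 and CD39 that turn extracellular ATP into adenosine, were 4.03-fold and 3.74-fold higher, and they were the members called among 9 purinergic genes; Nt5e averaged 8.92 in epithelium. Tnfrsf1b, a receptor for tumour necrosis factor, rose 5.52-fold and Prdm1, the repressor Blimp-1, 5.02-fold. Capg, an actin-capping protein, rose 4.52-fold. Nrp1, a surface receptor of thymus-derived regulatory cells, stood at 10.72 ± 0.12 and 9.11 ± 0.06 (3.07-fold), with a mean of 11.25 in epithelium. Ikzf2, the factor Helios, stood at 10.72, 10.36, 10.64 and 10.72 against 9.45, 9.90 and 9.67 without overlap, but its 1.91-fold difference lay under the fold minimum; when its probe sets were averaged it was called (log2 1.38). Il2ra, the CD25 chain of the interleukin 2 receptor, stood at 9.16 ± 0.12 and 8.50 ± 0.04 (1.58-fold) and was not called. Klrg1, a lectin receptor of terminally differentiated T cells, was the member called lower, at 6.23, 6.04, 6.38 and 5.92 in the gland and 8.22, 7.86 and 8.49 in the spleen (4.13-fold).

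Inhibitory receptors and their ligands were called higher in 9 of 17 and lower in 1 (median 1.09). Lag3, which binds MHC class II, stood at 9.06, 9.11, 9.18 and 9.07 in the gland and 4.67, 5.02 and 5.0 in the spleen (18.5-fold, adjusted p = 1.13e-12). Pdcd1, the receptor PD-1, stood at 9.68, 9.67, 9.83 and 9.81 against 6.67, 7.37 and 6.64 (7.24-fold, adjusted p = 1.98e-08). Havcr2, the receptor TIM-3, was dimmer, at 5.92, 5.81, 5.82 and 5.18 against 3.15, 3.23 and 3.03 (5.84-fold), with gland replicate 4 the lowest of its group. Both PD-1 ligands were among the members called, Pdcd1lg2 at 6.18-fold and Cd274 at 2.12-fold. Cd274 fell under the fold minimum with array medians centred (log2 0.93) or without spleen replicate 1 (0.99). Lilrb4a, an immunoglobulin-like inhibitory receptor, rose 17.9-fold, and its mean in gland B cells was 8.41. The member called lower was Cd160 (2.07-fold, adjusted p = 0.03), named after its values were seen. No member was called lower with the mean of probe sets, without gland replicate 2, 3 or 4, or without any single spleen replicate.

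Costimulatory genes were called higher in 5 of 22 (median 0.39). The members called were Tnfrsf4 (OX40, 5.43-fold), Tnfrsf9 (4-1BB, 3.93-fold), Icos (3.57-fold), the 4-1BB ligand Tnfsf9 (3.41-fold) and the CD30 ligand Tnfsf8 (2.43-fold). The other 17 were not called, and inducible molecules were among these too. Cd28, the constitutive costimulatory receptor, stood at 10.002 ± 0.13 and 9.36 ± 0.15, and Cd40lg, which activates B cells, at 5.79 ± 0.37 and 5.40 ± 0.35; neither was called.

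Follicular helper genes were called higher in 9 of 20 and lower in none (median 0.74). Il21, which drives B cell responses, stood at 7.68, 7.69, 7.95 and 8.24 in the gland and 3.79, 4.08 and 3.26 in the spleen (18.2-fold, adjusted p = 4.01e-11). Sostdc1, a secreted antagonist of BMP and Wnt signals, stood at 7.81, 8.58, 8.73 and 8.6 against 4.33, 4.24 and 4.00 (18.9-fold), with replicate 1 the lowest gland array. Maf, a factor that activates Il21 and Il10, stood at 8.43, 8.40, 8.34 and 8.38 against 5.16, 5.65 and 5.55 (7.63-fold). In each of these genes the dimmest gland array lay well above the brightest spleen array. Cxcr5, the receptor that brings cells to B cell follicles, was lower in level, at 6.49, 6.85, 6.95 and 6.69 against 5.33, 5.38 and 5.04 (2.82-fold), with 9.44 in gland B cells. Cxcl13, the ligand of that receptor, rose 12.2-fold, from 3.22 ± 0.47 to 6.83 ± 0.62. Bcl6, the lineage factor, stood at 9.46 ± 0.21 and 8.54 ± 0.15, a 1.89-fold difference under the fold minimum, and its means in gland B cells and epithelium were 10.05 and 10.42.

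Th1 genes were called higher in 11 of 19 and lower in none (median 1.42). Ifng, the defining Th1 cytokine, stood at 10.59, 10.31, 10.54 and 10.49 in the gland and 5.09, 5.78 and 5.87 in the spleen (30.0-fold, adjusted p = 0.00111). Tbx21, which encodes T-bet, stood at 9.03, 9.07, 9.07 and 8.95 against 6.05, 6.83 and 6.51 (5.91-fold, adjusted p = 0.0256). Cxcr3, the receptor that T-bet induces, stood at 11.08, 10.73, 11.05 and 10.94 against 8.75, 9.36 and 9.06 (3.72-fold, adjusted p = 0.031). The gland arrays of all 3 genes lay close together and above every spleen array. Their p-values carried a spread estimated over all 17 arrays, and epithelial replicate 1 stood apart from the other epithelial arrays in many lymphocyte genes. In a fit of the 7 CD4 T cell arrays alone the adjusted p was 9.24e-07 for Ifng, 1.3e-05 for Tbx21 and 4.3e-05 for Cxcr3. In the 17-array fit Tbx21 was lost without gland replicate 3 (adjusted p = 0.0514) or spleen replicate 1 (0.0929) or 3 (0.0651), with differences of 2.36 to 2.59. Cxcr3 was lost without gland replicate 1, 3 or 4 or any single spleen replicate (adjusted p = 0.0556 to 0.107) and with the replicate number as a block (0.0534).

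The CC chemokines of Th1 and cytotoxic cells were also higher. Ccl3 stood at 8.58, 7.45, 8.69 and 8.66 in the gland and 2.04, 3.80 and 2.36 in the spleen (48.9-fold), Ccl4 was 7.95-fold higher, and Ccl5 stood at 10.22, 10.37, 10.35 and 9.88 against 6.96, 7.56 and 6.81 (8.55-fold). Gland replicate 2 was the lowest gland array for Ccl3 and Ccl4, at 7.45 and 7.18. Tnf, the inflammatory cytokine, stood at 7.41 ± 0.15 and 6.03 ± 0.05 (2.61-fold). Il12rb1, a receptor chain for interleukin 12, rose 2.40-fold and Ifngr1, the ligand-binding chain of the interferon gamma receptor, 2.51-fold. Eomes, the relative of T-bet, stood at 5.83, 6.68, 6.73 and 5.65 against 4.24, 4.64 and 4.18 (3.65-fold, adjusted p = 0.0457, and 0.00157 in the 7-array fit). In the 17-array fit it was lost without any single array other than gland replicate 4 (adjusted p = 0.0562 to 0.122).

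Cytotoxic genes were called higher in 6 of 21 (median 0.52). Gzmk, a granzyme of memory T cells, stood at 8.01, 8.09, 8.10 and 7.61 against 4.93, 5.74 and 5.04 (6.57-fold), and Cst7, an inhibitor of granule cathepsins, at 9.91 ± 0.14 and 6.97 ± 0.18 (7.65-fold). Prf1, which encodes perforin, stood at 8.07 ± 0.14 and 8.29 ± 0.09, with overlap between the groups. Gzmb, a granzyme that activates caspases, stood at 7.30, 6.30, 6.77 and 6.92 against 5.04, 5.47 and 5.74 without overlap (2.65-fold) and had an adjusted p of 0.0659 in the 17-array fit and 0.00289 in the 7-array fit. Nkg7, a granule protein, differed by 2.63 on the log2 scale with adjusted p-values of 0.0709 and 5.23e-07 in these fits, and Fasl, the death ligand, by 2.02 with 0.107 and 0.000404; both were named after their values were seen. The remaining members called were the protease inhibitors Serpinb9, Serpinb6b, Ctla2a and Ctla2b, at 2.06-fold to 2.88-fold. Ctla2a had a mean of 10.28 in epithelium. Serpinb6b lost its call with array medians centred, quantile normalization or array weights, and without gland replicate 2 or spleen replicate 2 (log2 0.885 to 0.992). Serpinb9 was not called when its probe sets were averaged (log2 0.760).

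The 17-array and 7-array fits called 1191 and 1211 genes, of which 1185 were shared. Of the 26 genes called by the 7-array fit alone, 20 stood at least 4-fold higher in epithelial replicate 1 than in both other epithelial arrays. Cd69, which retains lymphocytes in tissue, was 1 of the 26. It stood at 10.13, 10.17, 10.16 and 10.29 in the gland and 9.09, 9.01 and 8.99 in the spleen (2.23-fold), with adjusted p-values of 0.537 and 1.3e-05, and at 8.57, 1.72 and 1.66 on the epithelial arrays.

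Th2 and Th17 genes gave fewer calls. Of 11 Th2 genes 1 was higher, the chemokine receptor Ccr8, and 1 lower, the interleukin 25 receptor Il17rb (2.65-fold), with a median of -0.05. Ccr8 stood at 8.63, 9.09, 8.95 and 8.67 in the gland and 3.69, 3.62 and 4.09 in the spleen (32.8-fold); tissue regulatory T cells are also known to carry it. Il4 stood at 3.62 ± 0.35 and 4.30 ± 0.29, Il5 at 3.85 ± 0.10 and 3.85 ± 0.08, and Il13 at 3.72 ± 0.15 and 3.77 ± 0.15, all below the median of all values. Gata3 stood at 8.94 ± 0.09 and 8.48 ± 0.12 (1.38-fold) and was not called. Of 9 Th17 genes 3 were called higher: Ahr, a ligand-activated transcription factor (4.35-fold), Rora, a nuclear receptor (2.16-fold), and Il1r1, the interleukin 1 receptor (2.06-fold). Epithelium held similar or higher levels of Ahr (8.36) and Il1r1 (8.40), and the count of Th17 calls was 1 with array medians centred or without spleen replicate 1. Il17a stood at 2.34 ± 0.21 and 1.90 ± 0.18, with overlapping arrays at the bottom of the scale.

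**Figure D3:**
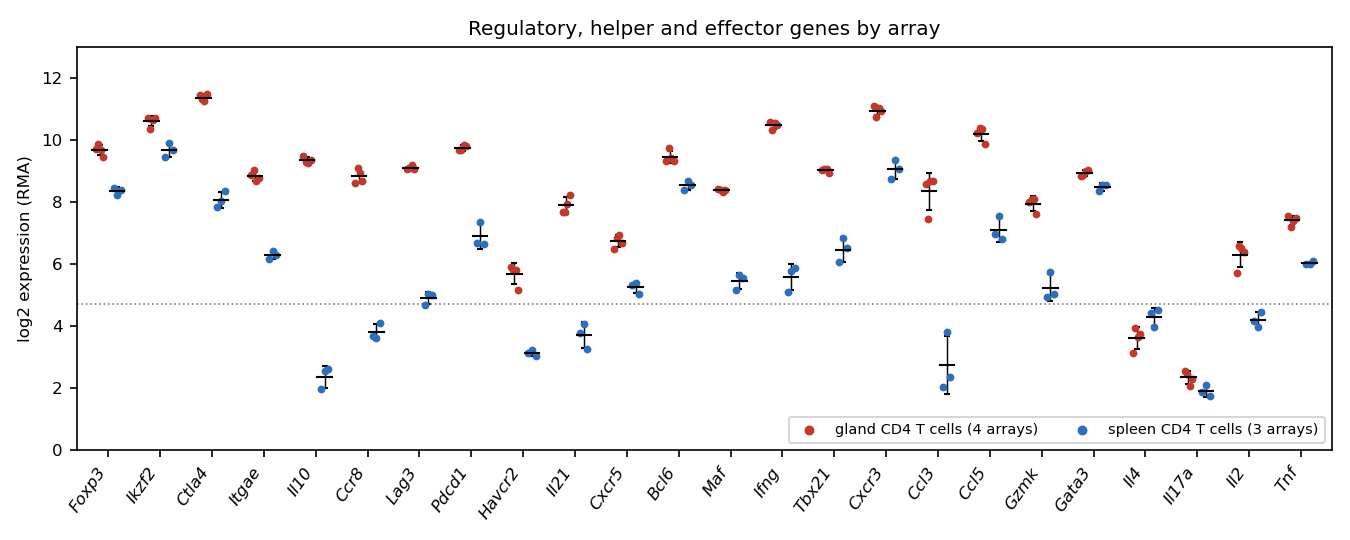
Log2 expression (vertical) of regulatory, helper and effector genes on each gland and spleen CD4 T cell array, with group means and SD bars and the median of all values (4.71) as a dotted line. Il10, Ccr8, Lag3, Il21 and Ccl3 lie near or below that line in the spleen and between 7.45 and 9.47 in the gland, whereas Il4 and Il17a lie below it in both tissues.

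Cytokine genes over all subsets were called higher in 13 of 27 and lower in none (median 1.03). Il2, the T cell growth factor, stood at 5.72, 6.59, 6.52 and 6.38 in the gland and 4.17, 3.96 and 4.46 in the spleen (4.31-fold, adjusted p = 3.55e-07). Penk, the enkephalin precursor, stood at 8.74, 9.77, 8.92 and 9.02 against 5.87, 5.87 and 5.83 (9.57-fold). Csf1, a macrophage growth factor, rose 7.17-fold and Tnfsf11, the ligand RANKL, 4.80-fold; Penk and Csf1 had epithelial means of 7.51 and 7.35, and Tnfsf11 one of 1.73. Tgfb1 stood at 5.77 ± 0.46 and 5.15 ± 0.20 (1.54-fold) and was not called. Among 26 cytokine receptors 5 were called higher (median 0.54). Il1r2, a decoy receptor for interleukin 1, led them at 8.05, 8.75, 7.98 and 7.93 against 3.09, 3.6 and 3.73 (26.2-fold). The others, Ifngr1, Il12rb1, Il1r1 and Il15ra, differed by 2.03-fold to 2.51-fold. This count was 3 with array medians centred, with quantile normalization or without spleen replicate 1, and 8 in the 7-array fit.

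Several of the largest increases lay outside the helper cell lists. Stfa3, a stefin that inhibits cysteine proteases, stood at 11.21, 11.25, 11.36 and 11.33 in the gland and 5.64, 6.35 and 5.33 in the spleen (45.6-fold, adjusted p = 4.87e-08), with 5.15 in epithelium and 3.66 in gland B cells. Vat1l stood at 6.73, 6.77, 6.90 and 6.93 against 2.63, 2.53 and 2.45 (19.7-fold). Myo3b, an unconventional myosin, stood at 6.86, 6.76, 6.99 and 7.05 against 3.40, 3.14 and 3.50 (11.9-fold), and Nts, the neurotensin precursor, was 13.5-fold higher. For Vat1l, Myo3b and Nts the means in epithelium and gland B cells lay between 2.23 and 3.05. These genes were taken as the 15 largest increases left after setting aside genes 4-fold higher in epithelium or gland B cells, a rule chosen after values were seen.

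Chemokine receptor genes were called higher in 7 of 27 and lower in 2 (median 0.30), beside 5.35% and 1.62% of all genes. Besides Ccr8, Cxcr3 and Cxcr5 they included Ccrl2, a chemerin-binding receptor (13.5-fold), Ptger2, a receptor for prostaglandin E2 (5.69-fold), and Cxcr6, a receptor of tissue T cells, at 8.09, 7.61, 7.83 and 8.00 against 6.26, 6.46 and 6.30 (2.91-fold). The members called lower were Ccr9 (5.01-fold), which guides cells to the small intestine, and Ccr3, a receptor for eotaxins (2.33-fold; named after its values were seen). Chemokine ligands were called higher in 13 of 30 (median 0.45). Cxcl10, a ligand of Cxcr3, stood at 8.97, 9.0, 8.68 and 8.58 in the gland and 4.45, 4.62 and 4.71 in the spleen (18.6-fold). Cxcl9, another ligand of Cxcr3, rose 5.36-fold from a spleen mean of 2.16 to 4.58, under the median of all values. Ccl1, the ligand of Ccr8, stood at 6.27, 7.50, 6.79 and 6.88 against 3.38, 3.31 and 3.34 (11.5-fold), with 3.09 in epithelium and 3.13 in gland B cells. Ccl9 had its highest mean in epithelium, at 11.22 against 8.12 in gland T cells.

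Genes linked to tissue residency were called higher in 12 of 18 and lower in none (median 2.43). Between gland and spleen B cells 7 of these 18 were called higher, beside 2.58% of all genes. Bhlhe40 and Xcl1 also stand in the list of antigen receptor induced genes below. Itgae, the integrin CD103 that binds E-cadherin, stood at 8.88, 9.02, 8.68 and 8.76 in the gland and 6.18, 6.43 and 6.29 in the spleen (5.79-fold, adjusted p = 1.22e-09). Rgs1, Rgs2 and Rgs16, which shorten signals from G protein-coupled receptors, were 9.78-fold, 13.2-fold and 15.4-fold higher. Rgs2 averaged 9.53 in epithelium and 10.70 in gland B cells, and Rgs16 5.39 and 4.77. For Rgs16 the arrays stood at 8.98, 8.97, 9.05 and 9.01 against 5.06, 5.16 and 4.95. With Gnaq, a G protein subunit (4.0-fold), they were the members called among 20 genes of G protein and cyclic AMP signalling (median 0.46), and 7 were called in the 7-array fit. Cdh1, E-cadherin itself, rose 10.3-fold to 6.36, with 10.14 in epithelium. S1pr1, the receptor by which T cells leave tissues, stood at 8.03, 7.21, 7.69 and 8.25 against 7.83, 8.29 and 8.40, and Klf2, its activator, at 8.14 ± 0.40 and 8.52 ± 0.22; both overlapped between the tissues. Among 23 memory-linked genes 9 were higher and Klrg1 lower (median 0.93); Cd44, the hyaluronan receptor, lay at the fold minimum (2.0-fold). Lmna, a lamin, stood at 8.70 on gland replicate 2 and 6.94 to 7.23 on the other gland arrays, and its adjusted p was 0.0659 without replicate 2, 0.0751 without spleen replicate 1 and 0.0766 without spleen replicate 2.

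Adhesion genes were called higher in 6 of 26 and lower in 2 (median 0.18), beside 5.35% and 1.62% of all genes. Alcam, the ligand of CD6, stood at 9.15, 8.94, 9.07 and 8.88 in the gland and 5.35, 5.87 and 5.61 in the spleen (10.5-fold, adjusted p = 3.58e-11), with 10.02 in epithelium. Icam1, the ligand of LFA-1, rose 3.77-fold (9.65 in epithelium and 9.46 in gland B cells) and Itgb1, the integrin beta 1 chain, 2.43-fold. The integrin beta 3 chain Itgb3 (2.88-fold) and the platelet and endothelial adhesion molecule Pecam1 were lower. Itgb3 lost its call when its probe sets were averaged (log2 -0.932). Pecam1 lost its call without gland replicate 2, gland replicate 3 or spleen replicate 2 (log2 -0.985 to -0.943).

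Immediate early genes, transcribed within minutes of a stimulus from factors already in the cell, were called higher in 16 of 23 and lower in none (median 2.30). Fosb, which forms AP-1 dimers with Jun proteins, stood at 10.07, 10.41, 10.12 and 10.34 in the gland and 3.92, 4.01 and 3.96 in the spleen (77.3-fold, adjusted p = 1.97e-13). Jun, the partner of Fos proteins, stood at 9.37, 9.72, 9.61 and 10.01 against 4.47, 4.43 and 5.29 (30.8-fold), and Fos at 11.19, 10.92, 11.12 and 11.38 against 6.70, 6.65 and 7.01 (20.7-fold). Gland and spleen arrays were far apart in all 3. These genes were as high in the other gland cells: Fosb averaged 10.61 in epithelium and 10.79 in gland B cells, Jun 11.01 and 10.42, and Fos 11.76 and 11.46. Klf4, a zinc finger factor, rose 35.8-fold, and Ppp1r15a, which restarts translation after stress, 15.8-fold. Egr1 was 1 of the 7 members not called, at 11.12 ± 0.02 and 10.47 ± 0.07 (1.57-fold), high in both tissues. Heat shock genes were called higher in 3 of 9 (median 0.64). Hspa1b, the inducible Hsp70, stood at 8.46, 10.79, 9.89 and 10.57 against 4.38, 5.45 and 5.09 (31.0-fold), with 11.32 in epithelium; Bag3 and Hsp90aa1 rose 3.65-fold and 2.08-fold. Hsp90aa1 lost its call with array medians centred, with array weights, or without gland replicate 2 or spleen replicate 1 (log2 0.90 to 0.96). Digestion was stated for the gland suspensions only, and its part in these levels cannot be told apart from that of the tissue.

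Genes that antigen receptor signals induce were called higher in 14 of 28 and lower in 1 (median 1.33). Bhlhe40, a repressor needed for cytokine production, stood at 10.59, 11.27, 10.99 and 10.77 in the gland and 5.83, 5.55 and 5.87 in the spleen (35.5-fold), and Nr4a2, an orphan nuclear receptor, at 9.45, 9.53, 9.33 and 9.31 against 4.04, 4.75 and 4.50 (31.4-fold). Nr4a1, its relative, rose 6.58-fold. In epithelium and gland B cells Bhlhe40 averaged 10.16 and 9.89, Nr4a2 8.93 and 8.37, and Nr4a1 8.83 and 9.99. Spry1, a feedback inhibitor of receptor signalling, stood at 8.71, 8.89, 8.62 and 8.90 against 5.0, 5.04 and 5.04 (13.5-fold), and Dusp4, a phosphatase of MAP kinases, was 15.1-fold higher. In B cells Spry1 stood at 0.06 (log2, gland minus spleen) and was not called, while Nr4a1 rose by 4.33. Egr2 stood at 9.71, 9.11, 9.73 and 9.67 against 8.54, 8.87 and 8.75 (1.78-fold) and was not called. Xcl1, a chemokine for cross-presenting dendritic cells, stood at 9.54, 9.02, 9.29 and 9.46 against 5.62, 6.35 and 5.71 (10.8-fold, adjusted p = 0.0117, and 7.19e-06 in the 7-array fit). Myc, the growth regulator, was the member called lower (2.32-fold, adjusted p = 0.0142; named after its values were seen), and leaving out gland replicate 2 or spleen replicate 2 ended this call.

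The immediate early, antigen receptor and type I interferon lists were picked by name for a look at the sequences just upstream of their called genes. Other lists were not searched on their own. Among them, the regulatory T cell list and the T cell transcription factor list each had 15 members called higher. RefSeq windows of 250 bases before the gene start (assembly GRCm38.p6, matched by symbol) were held for 13605 of the tested genes. Both strands were searched for TGACGTCA, the cyclic AMP response element, for TGANTCA, the AP-1 site, for the CArG box of serum response factor, and for the core of the interferon-stimulated response element (GAAA, any 2 bases, GAAA). Capitals mark the matches, and the lower-case run is read 5′ to 3′ on the gene's strand. The 6 genes with the largest change that held a match were these.
Fosl2, chr5:32136222-32136471, + strand: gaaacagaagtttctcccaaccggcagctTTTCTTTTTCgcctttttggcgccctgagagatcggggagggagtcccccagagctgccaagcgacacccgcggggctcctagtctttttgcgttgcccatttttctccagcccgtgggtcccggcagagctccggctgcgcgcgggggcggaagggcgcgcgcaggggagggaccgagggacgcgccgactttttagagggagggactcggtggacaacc
Ppp1r15a, chr7:45526269-45526518, - strand: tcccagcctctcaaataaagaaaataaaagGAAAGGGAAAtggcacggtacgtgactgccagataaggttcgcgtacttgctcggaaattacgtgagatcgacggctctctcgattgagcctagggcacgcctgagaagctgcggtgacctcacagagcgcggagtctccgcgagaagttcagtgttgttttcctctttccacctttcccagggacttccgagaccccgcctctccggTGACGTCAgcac
Rsad2, chr12:26456453-26456702, - strand: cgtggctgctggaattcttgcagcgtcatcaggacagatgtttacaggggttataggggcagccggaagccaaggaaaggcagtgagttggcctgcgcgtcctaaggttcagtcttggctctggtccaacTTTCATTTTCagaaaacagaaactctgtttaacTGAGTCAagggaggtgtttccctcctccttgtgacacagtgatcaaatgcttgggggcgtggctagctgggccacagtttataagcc
Dusp1, chr17:26508473-26508722, - strand: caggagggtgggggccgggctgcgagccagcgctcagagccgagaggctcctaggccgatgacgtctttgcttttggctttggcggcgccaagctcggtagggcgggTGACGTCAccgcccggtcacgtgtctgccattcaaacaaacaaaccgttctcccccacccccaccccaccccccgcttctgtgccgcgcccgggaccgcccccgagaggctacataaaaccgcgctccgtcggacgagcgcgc
Ifit3, chr19:34583279-34583528, + strand: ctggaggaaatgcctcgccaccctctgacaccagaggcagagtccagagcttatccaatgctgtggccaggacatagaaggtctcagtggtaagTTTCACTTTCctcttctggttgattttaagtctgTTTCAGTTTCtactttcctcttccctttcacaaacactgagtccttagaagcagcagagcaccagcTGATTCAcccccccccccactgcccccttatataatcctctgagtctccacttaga
Csrnp1, chr9:119983024-119983273, - strand: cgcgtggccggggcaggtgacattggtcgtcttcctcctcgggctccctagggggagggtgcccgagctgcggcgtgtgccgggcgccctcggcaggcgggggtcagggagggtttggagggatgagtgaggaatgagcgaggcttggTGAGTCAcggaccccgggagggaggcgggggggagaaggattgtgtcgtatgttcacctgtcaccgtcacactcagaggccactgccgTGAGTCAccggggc
Fosl2 encodes an AP-1 subunit, Dusp1 a MAP kinase phosphatase and Csrnp1 a nuclear factor; Rsad2 (viperin) and Ifit3 are antiviral proteins.

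Among 15 immediate early genes called higher with a window, 3 (20%) held TGACGTCA, against 2.52% of all genes with a window, and 1 (6.67%) held TGANTCA, against 6.84%. None held a CArG box (1.51% of all genes). Among 11 antigen receptor induced genes 1 held TGANTCA and none held TGACGTCA. Of 10 type I interferon genes, 5 (50%) held the interferon element core and 3 (30%) TGANTCA, against 3.09% and 6.84% of all genes. Over all 705 genes called higher with a window the shares were 2.98% for TGACGTCA, 9.65% for TGANTCA and 5.39% for the interferon element core, and over 222 called lower they were 1.8%, 6.31% and 0.901%. A match describes the letters in the window and does not show that a factor binds there.

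Type I interferon response genes were called higher in 14 of 22 and lower in none (median 1.40). Between gland and spleen B cells 17 of these 22 were called higher, as were 11 of the 18 interferon gamma genes below. Mx1, a dynamin-like antiviral GTPase, stood at 10.16, 8.77, 9.63 and 9.12 in the gland and 5.03, 5.96 and 5.97 in the spleen (13.6-fold, adjusted p = 7.32e-05). Rsad2 stood at 10.09, 9.43, 9.83 and 9.45 against 6.60, 6.58 and 7.15 (7.58-fold), and Ifit3 at 10.44, 8.73, 9.99 and 9.50 against 6.94, 6.96 and 7.22 (6.15-fold). In each of these genes gland replicate 1 was the highest and replicate 2 the lowest gland array. The list means likewise stood at 8.92, 8.02, 8.61 and 8.42 against 6.89, 6.93 and 7.19. Oasl2, Cmpk2 and Ifit1, all induced by interferon, rose 6.72-fold, 5.06-fold and 4.39-fold. Irf7, the factor that amplifies interferon production, stood at 8.18 ± 0.20 and 7.05 ± 0.08 (2.19-fold). In epithelium Rsad2 averaged 9.87, Oasl2 8.39 and Mx1 5.88, and in gland B cells they averaged 7.90, 7.05 and 8.68. Genes responding to interferon gamma were called higher in 6 of 18 (median 0.56): the chemokines Cxcl10 and Cxcl9, the guanylate-binding proteins Gbp3 (3.96-fold) and Gbp2 (2.12-fold), the GTPase Iigp1 (2.86-fold) and Cd274.

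NF-kB genes were called higher in 8 of 16 and lower in none (median 1.08). Tnfaip3, the inhibitor A20, stood at 10.67, 11.07, 10.88 and 10.91 in the gland and 7.44, 7.50 and 7.62 in the spleen (10.3-fold), and Nfkbia, the inhibitor IkB alpha, at 10.05, 10.44, 10.28 and 10.13 against 8.23, 8.38 and 8.32 (3.77-fold). Rel, the c-Rel subunit, rose 6.38-fold. Gland B cells averaged 9.82 for Tnfaip3, 8.92 for Rel and 8.79 for Nfkbia. With array medians centred the count was 5. Members of the STAT and SOCS list lay close to the fold minimum: Socs2 (2.41-fold, with 9.49 in epithelium), Jak3 (2.22-fold), Stat2 (2.11-fold) and Stat3 (2.03-fold) were called of 18. The count was 1 with array medians centred, 2 with quantile normalization and 0 with the mean of probe sets, where these 4 stood between 0.53 and 0.91 (log2, adjusted p = 0.00138 to 0.00346).

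T cell transcription factors were called higher in 15 of 38 and lower in 3 (median 0.67). After Bhlhe40 the largest was Nfil3, a leucine zipper repressor, at 8.72, 9.72, 9.02 and 8.90 against 4.79, 5.57 and 4.95 (15.9-fold), then Maf, Tbx21, Prdm1 and Ahr. Sox4, of early lymphocytes, Lef1, of naive T cells, and Id3 were lower. Of 19 genes of TGF-beta signalling 1 was called higher, beside 5.35% of all genes. This was Tgif1, a corepressor of Smad proteins (10.1-fold, with 9.07 in gland B cells). The list median of 0.14 turned to -0.02 with array medians centred. Among 23 survival and death genes Pmaip1, the BH3-only protein Noxa, stood at 9.21, 9.14, 9.20 and 9.36 against 4.87, 6.13 and 5.96 (11.9-fold), Bcl2l2 and Tnfsf10 rose 2.31-fold and 2.15-fold (Bcl2l2, at log2 0.34 when its probe sets were averaged, was then not called), with 8.82 for Pmaip1 in gland B cells and 9.54 for Bcl2l2 in epithelium, and Bcl2 fell from 9.80, 9.66 and 9.89 to 8.32, 8.72, 8.51 and 8.39 (2.45-fold).

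In the glycolysis and hypoxia list 5 of 19 were higher (median 0.51): Egln3, an oxygen sensor (6.47-fold), the hexokinase Hk2 (3.14-fold), the lactate transporter Slc16a3 (2.96-fold), Tpi1 (2.89-fold) and Aldoc (2.81-fold, but log2 0.86 and not called when its probe sets were averaged). Egln3 and Hk2 were higher in epithelium (9.29 and 9.41) than in gland T cells (8.46 and 6.47). Cell division genes were called higher in 3 of 33 (median 0.33), beside 5.35% of all genes. The largest of these was Cdkn1a, the p21 inhibitor that halts the cycle, at 8.07, 9.45, 8.38 and 7.73 against 3.74, 4.78 and 4.50 (16.8-fold), beside Mcm6 (2.43-fold) and Tk1 (2.03-fold) of DNA replication. Tk1 lay at the fold minimum and lost its call in 6 alternatives, at log2 0.86 to 0.999: array medians centred, quantile normalization, the replicate block, and gland replicate 3, gland replicate 4 or spleen replicate 2 left out. Mki67, the proliferation marker, stood at 8.41, 8.14, 8.34 and 8.49 against 7.77, 8.15 and 7.88 and Top2a at 7.50 ± 0.10 and 7.15 ± 0.22, neither called. None of 14 cholesterol synthesis, 19 respiratory chain and 18 ribosomal protein genes was called, with medians of -0.24, -0.02 and -0.06.

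**Figure D4:**
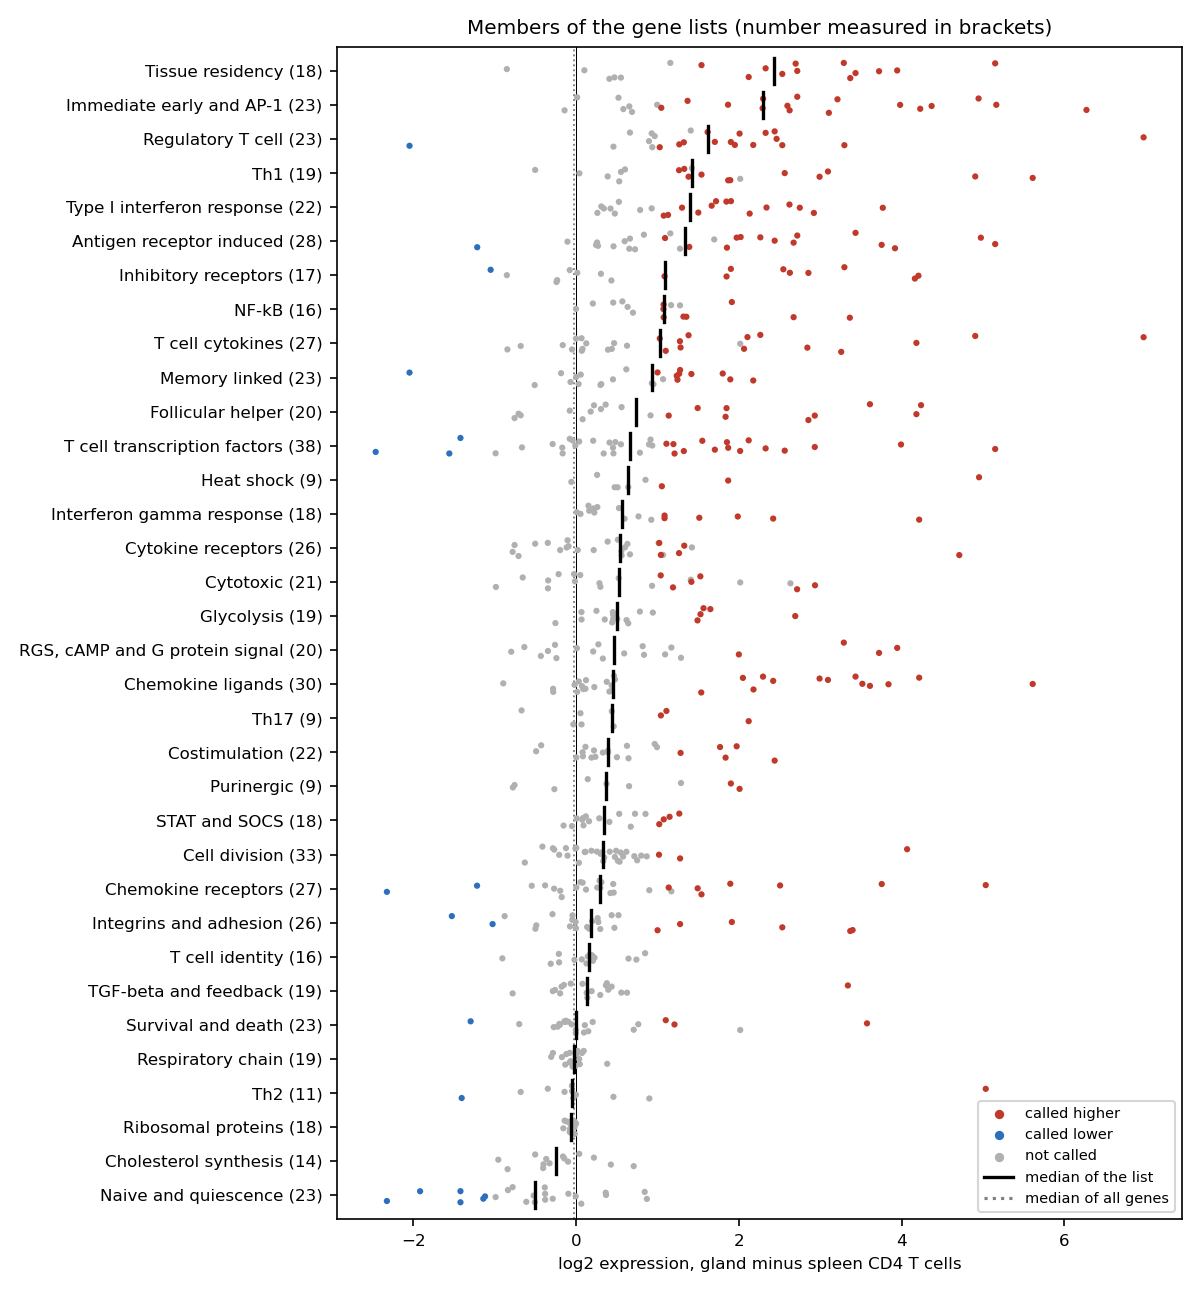
Log2 difference (horizontal, gland minus spleen) of every measured member of the lists of T cell and general pathways, 1 row per list (markers of other cell types are not shown), with called members coloured, the list median as a bar and the median of all genes as a dotted line. Tissue residency (2.43), immediate early (2.30) and regulatory T cell genes (1.62) have the highest medians among the lists shown and naive genes the lowest (-0.51).

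Genes of naive and quiescent T cells were called lower in 6 of 23 and higher in none (median -0.51). Igfbp4, a secreted binding protein enriched in naive CD4 T cells, stood at 7.25, 7.57, 7.19 and 7.64 in the gland and 9.26, 9.36 and 9.38 in the spleen (3.78-fold, adjusted p = 2.04e-07). Lef1, a Wnt-responsive factor of naive cells, stood at 5.52, 4.55, 4.89 and 5.39 against 6.22, 6.89 and 6.41 (2.68-fold). Ccr9 stood at 5.30, 4.67, 5.29 and 5.09 against 7.71, 7.14 and 7.38 (5.01-fold, adjusted p = 0.00249). All gland arrays lay below all spleen arrays in these genes. Treml2 (2.68-fold), Als2cl (2.20-fold) and Actn1, an actin cross-linker (2.17-fold), were the other members called. Averaging the probe sets of Als2cl left it just under the fold minimum, and it was then not called.

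Among the genes taken by the naming rule, the largest decrease was smaller than the largest increase. Drc1, a part of the dynein regulatory complex of cilia, stood at 4.39, 4.29, 4.39 and 4.49 in the gland and 7.28, 7.66 and 7.24 in the spleen (8.02-fold, adjusted p = 5.36e-12). Igf2bp3, an RNA-binding protein of fetal and immature cells, stood at 3.71, 3.91, 3.63 and 3.92 against 6.65, 6.36 and 6.85 (7.09-fold). Sox4, a factor of lymphocyte precursors, stood at 3.86, 4.39, 3.88 and 4.49 against 6.18, 6.55 and 7.12 (5.51-fold). The gland levels of all 3 lay below the median of all values. Sfrp2, a Wnt antagonist, fell 6.01-fold and Wdr38 6.03-fold. Dtx1, a Notch target, stood at 6.43, 7.44, 6.69 and 6.97 against 9.53, 9.11 and 9.21 (5.27-fold), and Pdlim4, an actin-associated adaptor, at 7.83, 7.92, 7.25 and 8.15 against 10.01, 9.74 and 9.79 (4.17-fold). Xkrx, Mettl27, Gabrr2, Ccdc171 and Tex26 fell by 4.95-fold to 5.86-fold. Hba-a1, an alpha globin, stood at 5.65, 5.48, 7.22 and 6.89 against 8.55, 9.04 and 8.72 (5.50-fold), and Alas2, of haem synthesis, was 2.04-fold lower. Alas2 lost its call with array weights or without gland replicate 1, gland replicate 2 or spleen replicate 3 (log2 -0.999 to -0.97). Hba-a1 and Alas2 were the members called among 5 red cell genes (median -0.91, and -0.38 with probe sets averaged), whose list means were 4.80 to 5.26 in gland and 5.72 to 6.12 in spleen T cells. The stated age of the spleen donors conflicts between labels, so its part in these decreases cannot be told apart from that of the tissue.

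**Figure D5:**
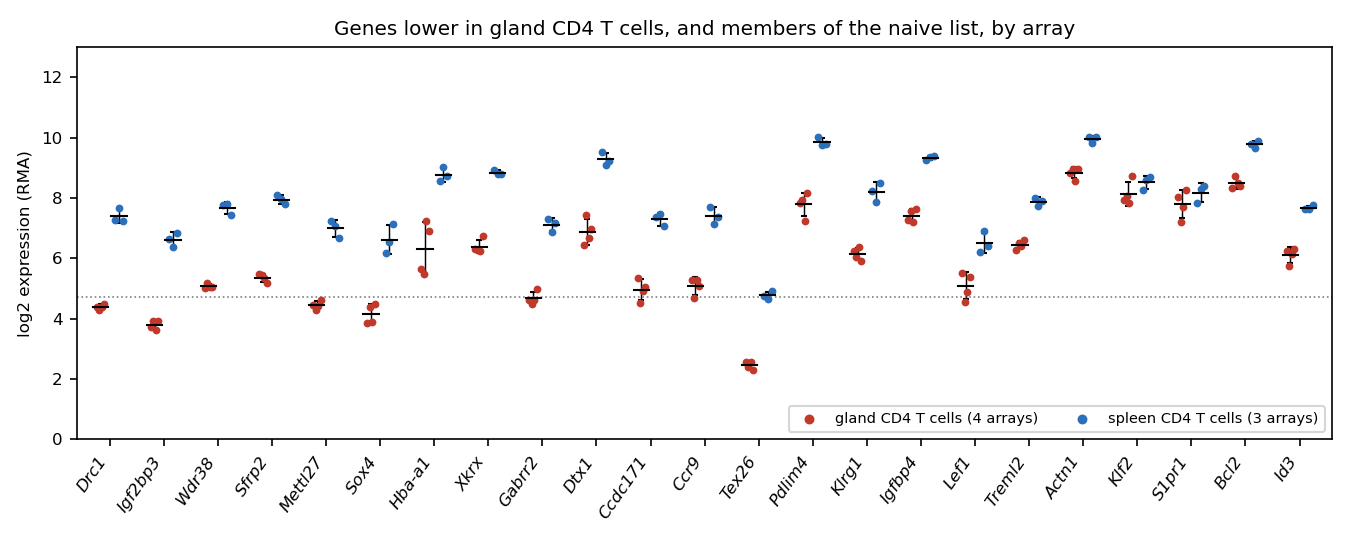
Log2 expression (vertical) of the largest decreases that the naming rule took and of naive T cell genes on each gland and spleen CD4 T cell array, with group means and SD bars. Every spleen array lies above every gland array for the genes called lower, while Klf2 and S1pr1 overlap.

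B cells sorted from the same organs gave another gland against spleen contrast, with no array shared. Of the 914 genes higher in gland T cells, 277 (30.3%) were also higher in gland B cells and 13 lower, where 441 of all genes (2.58%) were higher and 273 (1.6%) lower. Of the 277 lower in T cells 60 (21.7%) were lower in B cells and 7 higher. The signed change in T cells minus that in B cells was called for 869 genes (5.08% of all). It was positive for 661 (3.87%) and negative for 208 (1.22%). The sign does not compare the sizes of the changes, and a negative difference can come from a larger fall in T cells, as for Drc1. Among the genes higher in gland T cells the difference was called positive for 433. Il10 changed by 6.97 in T cells and 1.24 in B cells, a difference of 5.74. Ifng rose by 4.91 in T cells against 0.13 in B cells and Ccr8 by 5.03 against 0.26, with differences of 4.78 and 4.77. Shared changes included Fosb (6.27 and 6.83), Nr4a2 (4.97 and 4.91), Pmaip1 (3.58 and 4.12) and Ppp1r15a (3.98 and 4.12), and the secretory gene Obp1a (7.34 and 7.22). Bhlhe40 rose in both, by 5.15 and 1.53. Some changes ran in opposite directions. Ccr9 fell by 2.33 in T cells and rose by 2.13 in B cells (difference -4.45), and Tk1, whose call in T cells was lost in 6 alternatives, rose by 1.02 in T cells and fell by 1.05 in B cells. Drc1 fell by 3.0 in T cells beside 0.08 in B cells, whereas Igf2bp3, Sox4 and Hba-a1 fell in both, by 2.27, 3.44 and 2.35 in B cells.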

How the data were processed

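Expression was measured on Affymetrix arrays, whose values the authors deposited as log2 expression of 45141 probe sets on 17 arrays. Per the submitters' processing notes these were computed with Partek and RMA; versions and settings are not given in the sources used here. Probe sets were named from the platform annotation, with symbols updated by gene identifier (RefSeq, assembly GRCm38.p6). Controls made up 104 of these, 28898 named exactly 1 gene (28689 through its identifier), 551 named more and 15588 were absent from the annotation. Where a gene had more than 1 (7180 genes), the one brightest on average over the 17 arrays stood for it, and 17097 genes were tested without a filter on dim ones.

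Group means of the 5 sorted populations entered a limma model (version 3.58.1, R 4.3.3; lmFit and eBayes; degrees of freedom: 12 residual, 3.17 prior). Contrasts were gland minus spleen in CD4 T cells, and that change minus the same change in B cells. A call needed a fold of at least 2 and a p under 0.05 after Benjamini-Hochberg adjustment over every gene. Errors beside means are SDs between arrays.

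Arrays give no read depth: their number limits precision, and the median standard error of a log2 difference was 0.121. Array medians ran from 4.70 to 4.75. Correlations within a CD4 T cell group ran from 0.989 to 0.996, with gland replicate 2 lowest in the gland; between tissues they were 0.960 to 0.970. RNA integrity scores in the labels could not be matched to arrays. The gland against spleen fit of 17097 genes was also run on simulated data built from these arrays. It recovered 98% of genes shifted by 2 and 98% of those shifted by 1.5 on the log2 scale, with 3 false calls. The simulated noise was normal with 1 spread per gene in all groups, the form that the fit assumes. Estimated weights of the real arrays ran from 0.39 to 1.96, so recovery under unequal spread was not tested.

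The members of the comparison and 48 lists (806 genes, 701 measured; the others were not analysed here) were chosen with earlier results of these data known. Lists are described by counts and medians, with no set test. Named genes were the 15 largest increases and 15 largest decreases among called genes without overlap between groups and with the brighter group above the overall median level, without antigen receptor segments and unnamed models, up to 6 called genes per list with the largest change, and members that define a list. A further 15 increases outside genes 4-fold higher in epithelium or gland B cells than in spleen T cells were taken by a rule chosen after values were seen. Alternatives were other normalizations, probe set rules, filters, variance settings, array weights, a replicate block, fits of the compared groups alone and single arrays left out. Promoter windows came from RefSeq (13605 of the tested genes had one, 3492 had none).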

Additional observations from a re-analysis of the deposited data

Results flagged for a closer look

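Among 204 named genes tested, 1 of the 4 gland arrays stood far from the other gland arrays in 19; chance marks about 1 gene in 20 by this measure (Dixon's test). Gland replicate 2 was the outlying array in 13 of the 19, replicate 4 in 4, replicate 1 in 2 and replicate 3 in 0. On replicate 2 the outlying log2 level was the highest of the gland arrays for Il1r2 (8.75), Dusp4 (9.78), Dusp14, a MAP kinase phosphatase (7.80), Ifngr1 (8.67), Ctla2b (6.57), Ccrl2 (7.98), Rgs2 (10.91), Lmna (8.70), Krt8, a keratin (8.02), and Wdr38 (5.18), and the lowest for Ccl3 (7.45), Ccl4 (7.18) and Egr2 (9.11). Replicate 4 was the highest for Xkrx (6.72) and for Il13 (3.94, below the median of all values) and the lowest for Havcr2 (5.18) and Il12rb1 (7.11). Replicate 1 was the lowest for Sostdc1 (7.81) and Cd4 (10.53). Without gland replicate 2, 878 genes were called higher and 250 lower.

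For 23 of 43 genes tested, the change in CD4 T cells differed from that in B cells by limma's test of the difference (a difference of at least 1 on the log2 scale with a Benjamini-Hochberg adjusted p below 0.05, which 5.08% of all genes met). The 43 genes were taken for their large changes in T cells, so the choice itself favours a greater change there. Some were taken by the rule that set aside genes 4-fold higher in epithelium or gland B cells than in spleen T cells. The genes with a positive difference listed below all came from that rule. It removes genes high in gland B cells before the test, so these positive differences were partly built into the choice. The change in T cells minus that in B cells, on the log2 scale, was 5.80 for Stfa3, 5.74 for Il10, 4.78 for Ifng, 4.77 for Ccr8, 4.34 for Sostdc1, 4.22 for Vat1l, 4.06 for Myo3b, 3.98 for Il21, 3.86 for Il1r2, 3.76 for Dusp14, 3.73 for Rgs16, 3.69 for Spry1, 3.59 for Lag3 and 3.52 for Nts. It was -4.45 for Ccr9, -3.09 for Drc1, -2.76 for Sfrp2, -2.23 for Tex26, -2.16 for Mettl27, -2.15 for Pdlim4, -2.11 for Xkrx, -1.63 for Klrg1 and -1.44 for Gabrr2. Of these, Ccr9 was called in the opposite direction in B cells.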

How the results depend on the processing

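Against 914 genes higher and 277 lower in gland CD4 T cells, the adjusted p alone called 2168 and 1827, all probe sets called 549 lower, and array medians centred called 426 lower. Leaving out genes 4-fold higher in epithelium left 476 higher, and leaving out those 4-fold higher in gland B cells as well, chosen after seeing the data, left 397. For the difference from B cells, the adjusted p alone called 1120 positive and 611 negative against 661 and 208, and all probe sets called 338 negative. Leaving out single arrays gave 875 to 930 higher, 250 to 304 lower, and 609 to 672 positive and 191 to 244 negative differences from B cells.

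Same-numbered gland and spleen arrays had deviations correlated at -0.077, -0.100 and -0.016, and differently numbered ones at -0.221 to 0.192. Deviations from the means of so few arrays cannot decide whether the numbers pair the samples, and the labels do not say. With the replicate block 917 genes were called higher and 298 lower, and 638 and 202 for the difference from B cells. Of 172 named genes called, 143 kept the call in each of 14 alternative fits and none of the 204 named genes reversed; 4 of the 32 of these not called gained one, Ikzf2, Cd69, Ms4a1 and Gzmb. Nkg7 and Fasl, named besides the 204, were called in the 7-array fit. The number of arrays and the lack of detection calls limit statements on dim genes.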
